A study of Homo sapiens with 12 samples.

Results

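HOX genes code for transcription factors that bind DNA through a homeodomain, and the human genome holds them in 4 clusters, HOXA, HOXB, HOXC and HOXD. Within a cluster the genes are numbered by their order, from the 3′ end (paralogue number 1) to the 5′ end (number 13), and genes of the same number in different clusters are paralogues. In the embryo, low numbers act in the head and front of the trunk and high numbers toward its rear end, and many adult cells and cell lines keep the set of HOX genes of their place of origin. All gene symbols made of HOX, a letter from A to D and a number were taken, and 39 of the 23284 symbols listed in each library met this rule: 11 in HOXA, 10 in HOXB, 9 in HOXC and 9 in HOXD. They were described in degron (++) and degron (−) cells, at 2 doses and 2 times.

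Both populations derive from PANC-1, a line of human pancreatic ductal carcinoma, which was given, by retrovirus, a fluorescent reporter (ZsGreen) joined to the degron of ornithine decarboxylase, a signal that the proteasome reads directly. Degron (−) is the infected line itself, in which few cells were ZsGreen-positive, and degron (++) is the brighter part, sorted out once more, of a culture that had been enriched by repeated sorting for ZsGreen-positive cells, which have low proteasome activity. The 12 RNA-seq libraries formed 6 groups of 2: each population without irradiation (0 Gy) at 48 h, and after 4 Gy of gamma rays at 30 h and at 48 h. The 6 libraries taken as degron (−) carry ZsGreen– in their titles and d+ in their descriptions, so their labels conflict, and nothing in the labels gives the starting point of the hours. Nothing says that the 2 libraries of a group came from separate cultures, so the p-values measure only the spread between these libraries, which may be technical.

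The values were FPKM, fragments scaled to transcript length and to the size of the library, and no read counts were used, so depth is unknown. A value of 0 is given as listed at 0. For all 12 libraries the closest other library was from the same population, and none of 20 housekeeping genes was listed at 0 in any library. Of 6 ductal markers, all were present in both populations, and all differed at 0 Gy and 48 h, 5 higher and 1 lower in degron (++). KRT7 had 1142 to 1437 FPKM in degron (++) and 133 to 273 in degron (−), EPCAM 176 to 205 and 29.9 to 52.8, KRT19 816 to 951 and 667 to 774, and SOX9 17.4 to 22.9 and 35.6 to 43.9. Summed markers of other cells were low for blood cells (1.49 to 1.97 in degron (++), 0.187 to 1.04 in degron (−)) and endothelium (0.278 to 0.556 and 0.026 to 0.087), with CD3E listed at 0 in all libraries. Within these low sums CD14, the only blood cell marker tested, was higher in degron (++) at 0 Gy and 48 h. In log2(FPKM + 1) its difference was 1.07 (adjusted p = 0.000496 by limma, described below). It was also called higher in both conditions with 4 Gy. The 5 fibroblast markers summed to 14.4 to 25.4 FPKM in degron (++), nearly all LUM, and to 37.1 to 53.9 in degron (−), nearly all COL1A1, while COL1A2 and DCN were listed at 0 in all 12 libraries. The part of these cells in the differences given here was not tested, and in bulk RNA fewer cells that express a gene and less RNA per cell cannot be told apart.

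Paralogues of number 10 show how alike these genes are in sequence and how unlike in level, and their homeoboxes are given for that reason. The homeobox is the stretch of 180 bases that codes for the 60 residues of the homeodomain. All 3 lie in exon 2 of 2 in GENCODE v29 on GRCh38: HOXA10 at chr7:27171947-27172126 on the minus strand, HOXC10 at chr12:53989219-53989398 and HOXD10 at chr2:176119004-176119183, both on the plus strand. Capitals mark the bases that differ from HOXA10, which are 33 in HOXC10 and 40 in HOXD10.
HOXA10: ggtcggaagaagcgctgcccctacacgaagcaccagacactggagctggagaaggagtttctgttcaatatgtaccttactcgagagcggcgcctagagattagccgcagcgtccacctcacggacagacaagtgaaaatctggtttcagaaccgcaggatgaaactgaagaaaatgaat
HOXC10: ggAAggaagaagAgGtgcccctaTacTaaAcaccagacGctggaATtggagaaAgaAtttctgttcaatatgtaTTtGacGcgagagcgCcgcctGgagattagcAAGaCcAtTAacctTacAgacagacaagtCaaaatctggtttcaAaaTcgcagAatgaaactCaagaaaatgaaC
HOXD10: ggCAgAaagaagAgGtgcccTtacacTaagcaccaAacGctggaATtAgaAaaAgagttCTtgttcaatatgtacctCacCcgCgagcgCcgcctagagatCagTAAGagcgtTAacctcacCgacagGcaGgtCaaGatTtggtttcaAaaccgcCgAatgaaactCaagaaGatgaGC
Of these, HOXA10 was the higher in degron (++) cells, HOXC10 held the highest level of any HOX gene in degron (−) cells, and HOXD10 did not reach 0.2 FPKM in any library. Over the 180 bases of the 39 homeoboxes, the median identity of bases was 81.7% for the 42 pairs with the same number and 60.6% for the other pairs. The transcripts themselves were distinct between clusters: of their 50-base words, only HOXB3 and HOXD3 shared any, 13 words, while 11 genes shared words within their cluster, such as HOXC4 with HOXC5 and HOXC6 (16.3% of HOXC4 words). Within their clusters HOXB6 shared 14.6% of its words, HOXD10 15.2% and HOXD11 19.8%. Words were also shared with genes outside the 39, such as 76.5% of HOXD4 words with AC009336.2. How reads in the shared stretches were divided is not stated, so these genes, HOXC4, HOXC5 and HOXC6 among them, are uncertain to that extent. HOXA7 (61.9% of words) and HOXA6 (29.4%) share reverse-strand words with HOXA-AS3, and HOXA11 with HOXA11-AS. In all, 19 genes share some reverse-strand words with another gene, among them HOXD1 (53.8%), HOXA10 (14.8%) and HOXA3 (9.8%). The strand setting of the counting is not given in the sources used here. Whether reads of these genes and of the antisense genes were kept apart in these stretches is therefore not known, and the values are uncertain to that extent. RefSeq start windows (GRCh38.p14, 250 bases before to 50 after the start) were at hand for 20 of the members and held a median of 22 CG dinucleotides in 27 windows, against a median of 14 in 35089 windows of other genes. Of HOXB only HOXB1 had a window, and of HOXC only HOXC4 and HOXC5, so the figure describes mostly HOXA and HOXD. Some genes, such as HOXA3, gave several windows.

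The populations differed in which HOX genes they expressed. A gene was counted as expressed in a population where none of its 6 libraries had less than 1 FPKM. This rule pools doses and times, so the list itself cannot change with either, and single libraries are described below. Degron (++) cells expressed 10 of the 39, namely HOXA2, HOXA3, HOXA5, HOXA6, HOXA10, HOXB5, HOXB6, HOXB9, HOXC6 and HOXC9. Degron (−) cells expressed 23, among them HOXA2, HOXA3, HOXA5 and HOXA13, every HOXB gene except HOXB1, and all 9 HOXC genes. The populations shared 8 of these, which is 8 of 10 for degron (++) and 8 of 23 for degron (−). HOXA6 and HOXA10 were expressed by this rule in degron (++) alone, and 15 genes in degron (−) alone. The remaining 14 met the rule in neither population.

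**Figure D1:**
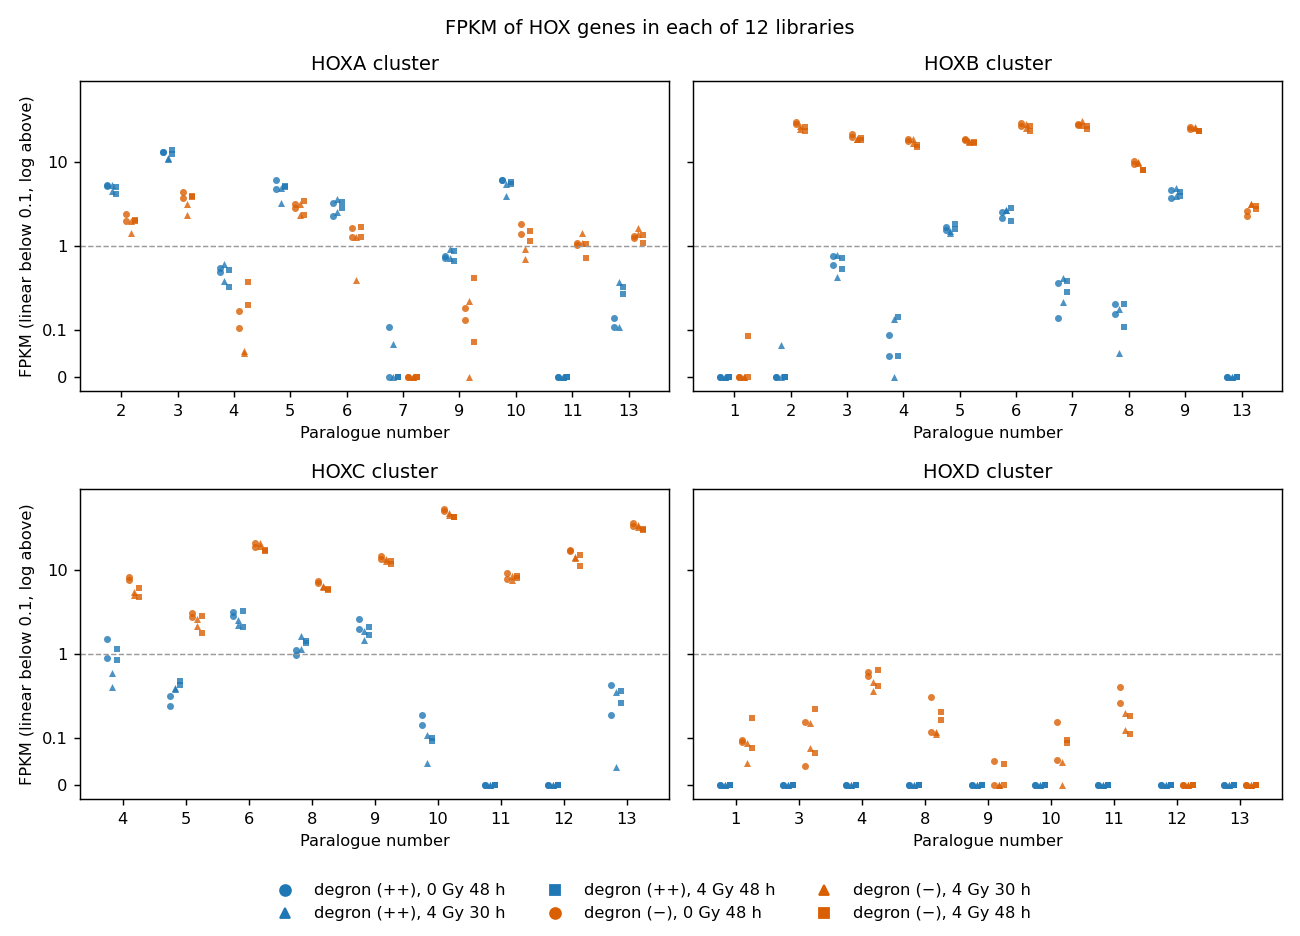
FPKM of HOX genes by cluster (panel) and paralogue number (x axis), with 1 point per library, degron (++) in blue and degron (−) in orange and the condition as the shape of the point; the y axis is linear below 0.1 FPKM and logarithmic above, and the dashed line is 1 FPKM. HOXB2 to HOXB9 and HOXC4 to HOXC13 stand higher in degron (−) in all 12 libraries, HOXA2, HOXA3, HOXA6, HOXA9 and HOXA10 stand higher in degron (++), and no HOXD gene reaches 1 FPKM.

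Across conditions, 36 of the 39 genes stayed on 1 side of 1 FPKM in all 6 libraries of degron (++) cells, and 36 did so in degron (−) cells. Of the 36, 26 in degron (++) and 13 in degron (−) were below 1 FPKM throughout, and 10 and 23 were never below it. Of those below, 14 and 3 were listed at 0 in all 6 libraries, and such genes say little about stability. The 3 that crossed included HOXC4 and HOXC8 in degron (++), and were HOXA6, HOXA10 and HOXA11 in degron (−). A degron (++) library held 10 to 13 HOX genes at 1 FPKM or more and a degron (−) library 24 to 26. At a stricter level of 5 FPKM in all 6 libraries, HOXA3 alone remained in degron (++), against 15 genes in degron (−). At 0.5 FPKM the numbers were 13 and 25.

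In the HOXA cluster, degron (++) cells had the higher level for most genes from number 2 to number 10 and the lower level at the 5′ end. HOXA3, which patterns the third pharyngeal pouch, was the highest HOX gene in all 6 degron (++) libraries, with FPKM of 13.1 and 12.95 without irradiation, 10.9 and 10.8 at 30 h with 4 Gy, and 13.6 and 12.2 at 48 h with 4 Gy. In degron (−) cells the corresponding HOXA3 values were 4.37 and 3.67, 2.36 and 3.11, and 3.82 and 3.89. The ranges of HOXA3 did not overlap. HOXA10, known for its role in the uterus, had 6.01 and 6.06, 3.92 and 5.49, and 5.42 and 5.78 FPKM in degron (++) cells in the same order. It had 1.41 and 1.80, 0.913 and 0.710, and 1.497 and 1.16 FPKM in degron (−) cells. HOXA10 was thus higher in all 6 degron (++) libraries, and in degron (−) cells it was under 1 FPKM only at 4 Gy and 30 h.

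HOXA2, which patterns the second pharyngeal arch, ranged from 4.11 to 5.31 FPKM (median 5.04) in degron (++) and from 1.43 to 2.41 (median 1.98) in degron (−). HOXA6 ranged from 2.27 to 3.57 (median 3.05) and from 0.399 to 1.68 (median 1.28), where the lowest value came from replicate 1 of degron (−) at 4 Gy and 30 h. HOXA9, a gene often raised in acute leukaemia, was low in both, at 0.672 to 0.910 and 0.001 to 0.414 FPKM. For these 3 genes all degron (++) libraries were above all degron (−) libraries. HOXA5, which acts in lung development, ranged from 3.19 to 6.11 (median 4.94) and from 2.30 to 3.44 (median 2.95). The HOXA5 ranges overlapped through 1 library, replicate 1 of degron (++) at 4 Gy and 30 h (3.19).

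The HOXA genes at the 5′ end were lower in degron (++) cells, and HOXA4 and HOXA7 were low in both populations. HOXA13, which acts in the distal limb and genital tubercle, ranged from 0.109 to 0.376 (median 0.206) and from 1.10 to 1.64 (median 1.34). HOXA11, a gene of the forelimb, kidney and uterus, was listed at 0 in all 6 degron (++) libraries and had 0.726 to 1.43 (median 1.07) in degron (−). HOXA10 and HOXA11 are neighbours on the chromosome, and they differed between the populations in opposite directions. HOXA4 overlapped between the populations, at 0.327 to 0.609 and 0.052 to 0.374, and HOXA7 was listed at 0 except in 2 degron (++) libraries with 0.111 and 0.070.

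The HOXB cluster was active over nearly its whole length in degron (−) cells and at a few positions in degron (++) cells. HOXB2, a hindbrain gene, had 29.2 and 28.1 FPKM without irradiation, 26.7 and 24.7 at 30 h with 4 Gy, and 23.2 and 25.4 at 48 h with 4 Gy in degron (−) cells. In degron (++) cells HOXB2 was listed at 0 in 5 of 6 libraries and had 0.069 in the sixth, so its populations stood apart in every library. HOXB7 ranged from 24.2 to 30.0 FPKM (median 26.9) in degron (−) and from 0.142 to 0.416 (median 0.325) in degron (++). HOXB4, known for expanding blood stem cells, ranged from 15.1 to 18.7 (median 17.2) and from 0 to 0.145 (median 0.068). HOXB3 ranged from 17.9 to 21.0 (median 18.7) and from 0.424 to 0.789 (median 0.661). These neighbours and HOXB8 (7.91 to 10.2, median 9.52, and 0.052 to 0.205, median 0.168) were all under 1 FPKM in every degron (++) library.

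Of the HOXB genes, 3 were expressed in both populations, at different levels. HOXB9 ranged from 22.7 to 25.7 FPKM (median 24.6) in degron (−) and from 3.72 to 4.83 (median 4.18) in degron (++). HOXB6 ranged from 22.9 to 28.6 (median 26.4) and from 1.99 to 2.83 (median 2.60). HOXB5 ranged from 16.5 to 18.3 (median 17.4) and from 1.44 to 1.81 (median 1.56). The mean FPKM in degron (++) cells was thus 17.4% of that in degron (−) cells for HOXB9, 9.43% for HOXB6 and 9.15% for HOXB5, against 1.12% for HOXB7 and 1.65% for HOXB8, which lie among them in the cluster. HOXB13, a prostate gene at the 5′ end, was listed at 0 in all degron (++) libraries and had 2.24 to 3.18 (median 2.85) in degron (−). HOXB1 was listed at 0 in 11 of the 12 libraries and had 0.088 in 1 degron (−) library.

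The HOXC cluster was expressed over its whole length in degron (−) cells, and its 5′ end was near or at 0 in degron (++) cells. HOXC10, which acts in motor neurons of the lumbar cord, was the highest HOX gene in all 6 degron (−) libraries, with 49.2 and 51.9 FPKM without irradiation, 47.3 and 44.0 at 30 h with 4 Gy, and 42.0 and 41.9 at 48 h with 4 Gy. In degron (++) cells HOXC10 had 0.145 and 0.188, 0.110 and 0.048, and 0.101 and 0.095 FPKM, 0.249% of the degron (−) mean. HOXC13, a gene of hair follicles and nails, ranged from 29.3 to 35.1 (median 31.9) in degron (−) and from 0.038 to 0.424 (median 0.309) in degron (++). HOXC12 had 11.1 to 16.9 (median 14.3) and HOXC11 had 7.60 to 9.15 (median 8.05) in degron (−), and both were listed at 0 in all 6 degron (++) libraries.

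The 3′ HOXC genes were detected in both populations, with mean FPKM in degron (++) cells at 14.3% to 19.9% of that in degron (−) cells. HOXC6 ranged from 2.102 to 3.21 FPKM (median 2.65) in degron (++) and from 16.5 to 20.5 (median 18.7) in degron (−). HOXC9, which acts in motor neurons of the thoracic cord, ranged from 1.45 to 2.59 (median 1.93) and from 11.6 to 14.5 (median 12.9). HOXC8 ranged from 0.973 to 1.62 (median 1.25) and from 5.78 to 7.24 (median 6.27). The ranges did not overlap for any of them. HOXC4 ranged from 0.404 to 1.52 (median 0.874) and from 4.79 to 8.20 (median 5.70), and HOXC5 from 0.240 to 0.483 and from 1.76 to 3.07.

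The HOXD cluster was close to silent in both populations. All 9 genes were listed at 0 in all degron (++) libraries, and HOXD12 and HOXD13, the latter a gene of the digits, were also listed at 0 in all degron (−) libraries. The highest HOXD gene was HOXD4, with 0.363 to 0.653 FPKM in degron (−). HOXD11 had 0.113 to 0.408, HOXD8 0.113 to 0.305, HOXD3 0.041 to 0.220 and HOXD1 0.047 to 0.173 in degron (−). HOXD9 (0 to 0.051) and HOXD10 (0 to 0.155) were each listed at 0 in at least 1 degron (−) library. Whether such low values are expression cannot be read without counts.

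Summed over members, HOX FPKM came to between 45.0 and 53.8 per degron (++) library and to between 308.1 and 359.1 per degron (−) library. The populations did not overlap, and they also differed in the make-up of the sum. HOXA held 63.1% to 67.4% of it in degron (++), with HOXB at 16.95% to 21.5% and HOXC at 12.1% to 16.6%. In degron (−) cells HOXA held 4.25% to 5.76%, HOXB 49.4% to 51.8%, HOXC 42.6% to 45.5% and HOXD 0.262% to 0.423%. The summed FPKM of HOXA was nevertheless the higher in degron (++), 28.4 to 36.2 against 14.5 to 17.8, while HOXB was 9.11 to 10.2 against 157.9 to 177.3 and HOXC 5.70 to 8.42 against 131.2 to 163.3.

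**Figure D2:**
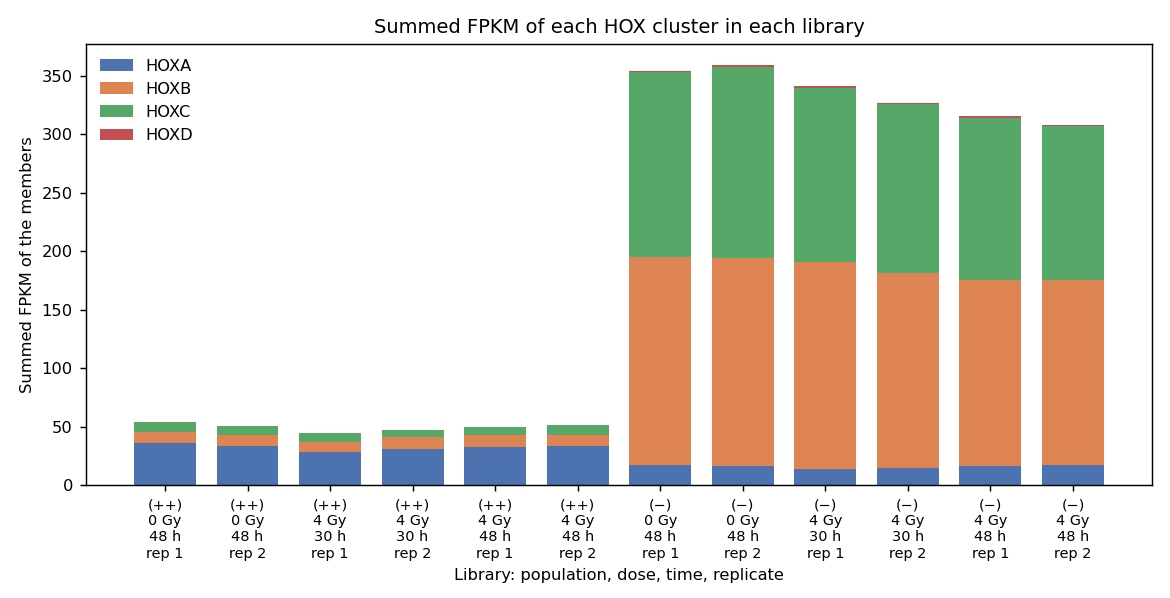
Summed FPKM of the members of each HOX cluster (colour) in each of the 12 libraries (x axis: population, dose, time and replicate), stacked. The 6 degron (++) bars reach 45.0 to 53.8 and are mostly HOXA, and the 6 degron (−) bars reach 308.1 to 359.1 and are almost wholly HOXB and HOXC; HOXD is barely visible.

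By paralogue number, the shares differed at both ends of the range. Numbers 11 to 13 held 0.311% to 1.62% of the HOX sum in degron (++) and 17.3% to 18.9% in degron (−), whereas numbers 5 to 8 held similar shares, 29.9% to 35.9% and 32.5% to 34.5%. Numbers 9 and 10 held 23.5% to 26.9% and 24.97% to 26.2%, and numbers 1 to 4 held 39.4% to 42.8% and 22.2% to 23.8%. Every member of numbers 11 and 12 was listed at 0 in all 6 degron (++) libraries, while their sums in degron (−) were 9.08 to 10.6 and 11.1 to 16.9 FPKM. Number 6 was the only one with all its members (HOXA6, HOXB6 and HOXC6) expressed in degron (++). In degron (−) cells, number 5 had all its members (HOXA5, HOXB5 and HOXC5) expressed, and 2 of 2 members of number 2 were. The leading member of a number often came from another cluster: for number 3 it was HOXA3 in degron (++) and HOXB3 in degron (−), and for number 10 it was HOXA10 and HOXC10.

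The difference between the populations was tested with limma on log2(FPKM + 1) within each condition, where a difference is degron (++) minus degron (−) and understates the change of low genes. Of the 39 members, 26 had at least 1 FPKM in at least 2 libraries and were tested: 8 HOXA, 9 HOXB, 9 HOXC and no HOXD gene. Only 12 of the 26 passed this filter within both populations, so a gene that entered through degron (−) alone had to differ. At 0 Gy and 48 h, 5 were higher and 21 lower in degron (++) at an adjusted p under 0.05, where 37.6% of all 12946 genes tested were higher and 40.2% lower. At 4 Gy and 30 h, 4 were higher and 21 lower (38.3% and 40.8% of all genes), and at 4 Gy and 48 h, 5 and 21 (37.1% and 39.6%). Most genes differed between these populations, so a call by itself says little about HOX genes. Of the 12 that passed within both populations, 5 were higher and 7 lower without irradiation, 4 and 7 with 4 Gy at 30 h, and 5 and 7 with 4 Gy at 48 h. Their median difference was −1.996, −1.83 and −1.60, but they lay on both sides of 0, so it stands for neither side. The median over all genes tested, which were not held to the filter within both populations, was −0.02, −0.02 and −0.01. Rescaling FPKM to a common sum (TPM) shifted the median of all genes to −0.21, −0.27 and −0.25, and the share of higher among all calls from 48.3%, 48.5% and 48.3% to 35.9%, 33.3% and 31.7%; the HOX genes then split into 3 higher and 21 lower, 4 and 21, and 3 and 21, and none changed direction. The microRNA gene MIR622 alone held 28.6% to 29.95% of the FPKM sum in degron (++) and 22.5% to 27.1% in degron (−), and with 1602 small RNA genes left out of the rescaling the median was −0.07, −0.13 and −0.09 with the HOX counts as without it, 26, 25 and 26. 

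**Figure D3:**
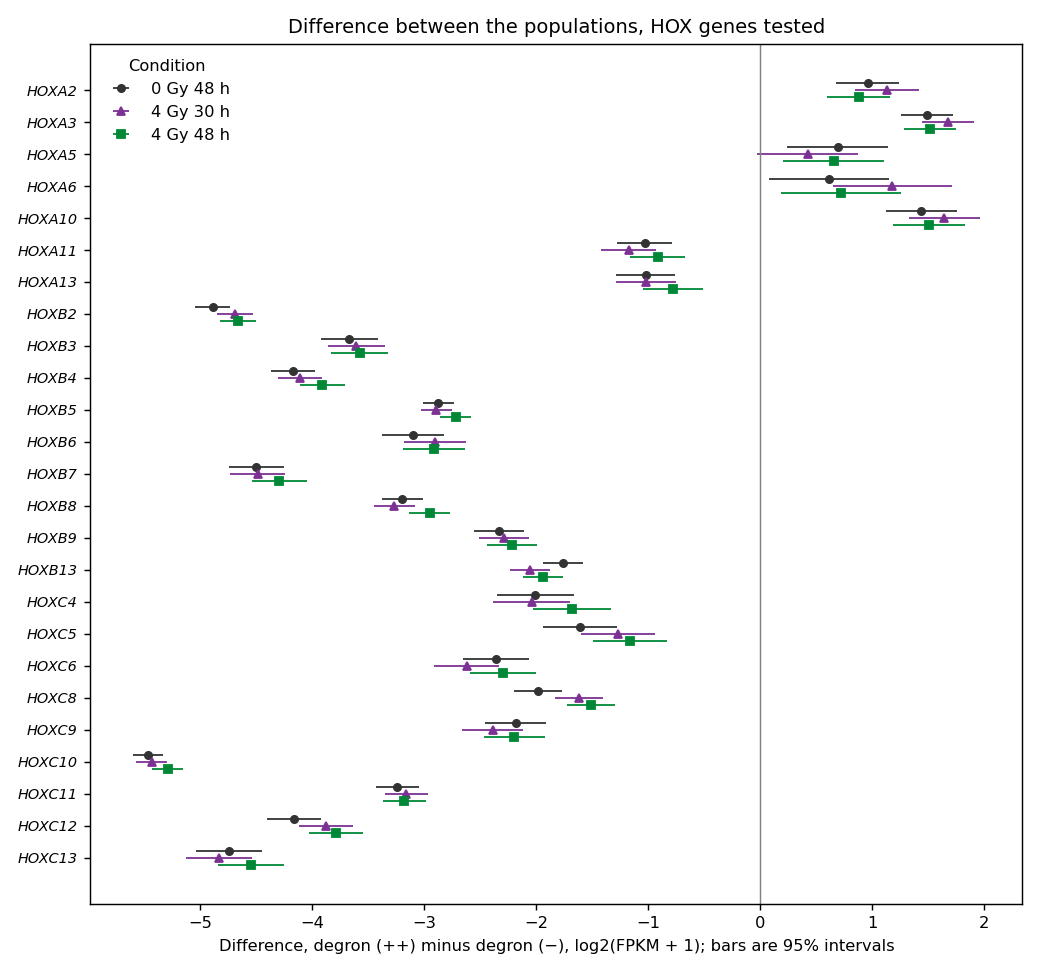
Difference in log2(FPKM + 1), degron (++) minus degron (−), for HOX genes tested (rows, by cluster and number), with 95% intervals from limma, in 3 conditions (colour and shape). All HOXB and HOXC genes lie left of 0, from −1.16 for HOXC5 to −5.46 for HOXC10, HOXA2, HOXA3, HOXA5, HOXA6 and HOXA10 lie right of 0, and the 3 conditions lie close together for each gene.

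The size of the difference varied widely within a cluster. At 0 Gy and 48 h it was −5.46 for HOXC10 (SE 0.060, adjusted p = 2.65e-11) and −4.74 for HOXC13 (SE 0.13, adjusted p = 3.67e-09), and −1.61 for HOXC5 (SE 0.15, adjusted p = 7.35e-06). In HOXB it ran from −4.89 for HOXB2 (SE 0.070, adjusted p = 7.90e-11) to −2.34 for HOXB9 (SE 0.098, adjusted p = 4.61e-08) and −1.76 for HOXB13 (SE 0.078, adjusted p = 6.33e-08). The genes higher in degron (++) had smaller differences, 1.49 for HOXA3 (SE 0.10, adjusted p = 1.17e-06), 1.44 for HOXA10 (SE 0.14, adjusted p = 1.15e-05) and 0.96 for HOXA2 (SE 0.12, adjusted p = 8.95e-05). HOXA13 was lower in degron (++) in all 3 conditions, with a difference of −1.02 at 0 Gy and 48 h. HOXA5 and HOXA6 had the widest errors: HOXA5 was 0.69 (adjusted p = 0.0105), 0.42 (adjusted p = 0.0765) and 0.66 (adjusted p = 0.0137) in the 3 conditions, and HOXA6 0.61 (adjusted p = 0.0379), 1.18 (adjusted p = 0.00130) and 0.72 (adjusted p = 0.0193). HOXA5 was therefore not called at 4 Gy and 30 h, and without replicate 1 of degron (++) in that group it was (0.67, adjusted p = 0.0191). Its calls were also lost without replicate 1 of degron (++) or of degron (−) at 0 Gy (adjusted p = 0.0758 and 0.0551), and without replicate 2 of degron (++) or replicate 1 of degron (−) at 4 Gy and 48 h (adjusted p = 0.0537 and 0.105). HOXA6 was lost without the same libraries and without replicate 2 of degron (−) at 0 Gy. Over all alternatives HOXA6 lost its call in 7 of 12 at 0 Gy and 48 h, and in 4 of 12 at 4 Gy and 48 h. By contrast, HOXA2, HOXA3 and HOXA10 kept their calls in every alternative run.

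Counted over all 39 members without a filter, 26 had all 6 degron (−) libraries above all 6 degron (++) libraries, and 5 had the reverse. Over the 23284 symbols these shares were 23.9% and 20.2%, but only 18487 symbols had any value above 0, and the rest could not separate. The 26 members include 5 HOXD genes listed at 0 in degron (++) and as low as 0.041 FPKM (HOXD3) in degron (−). The remaining 8 overlapped, namely HOXA4, HOXA5, HOXA7, HOXB1, HOXD9, HOXD10, HOXD12 and HOXD13. Both directions occurred within HOXA (5 genes higher in degron (++), 3 higher in degron (−) and 3 overlapping), and in HOXB (9 of 10), HOXC (9 of 9) and HOXD (5 of 9) the separated genes were all higher in degron (−). When limma was run on all genes with any value above 0, which left 37 members, 6 were higher and 26 lower in degron (++) at 0 Gy and 48 h, where 28.1% and 32.1% of genes were. HOXA9 (0.59, adjusted p = 0.00601) and HOXA4 (0.42, adjusted p = 0.00542) were then called higher, HOXA6 was no longer called (adjusted p = 0.0601), and the HOXD genes called lower (HOXD1, HOXD4, HOXD8, HOXD10 and HOXD11) differed by at most 0.66 on the log2(FPKM + 1) scale, HOXD4 at −0.66.

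Within a population, the expressed HOX genes varied less than 2-fold over dose, time and replicate. In degron (++) cells, the highest library of an expressed gene was 1.26 (HOXA3) to 1.91 (HOXA5) times the lowest over all 6 libraries, with a median of 1.48 over the 10 genes. In degron (−) cells, the range was 1.11 (HOXB5) to 1.86 (HOXA3), with a median of 1.25 over the 23 genes. All 33 of these ratios were under 2, and the rule that chose the genes leaves out those that went under 1 FPKM in any library. Over all members above 0 in all 6 libraries, the ratio was over 2 for 7 of 22 in degron (++) and for 8 of 33 in degron (−), mostly genes of low level. Among them were HOXC4 in degron (++) (3.77) and HOXA6 (4.20) and HOXA10 (2.54) in degron (−).

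With 4 Gy against 0 Gy at 48 h in degron (++) cells, no HOX gene passed an adjusted p of 0.05, where 1.82% of all genes did. By unadjusted p under 0.05 there was 1, HOXC8 (0.23, adjusted p = 0.25), against 17.6% of all genes. The differences ranged from −0.19 to 0.23 over the 26 genes, and every 95% interval lay within 1 log2 unit of 0. Only 12 of the 26 passed the filter within both populations, and some, such as HOXC11 and HOXC12, were listed at 0 throughout degron (++). Genes near 0 in degron (++) could hardly show a difference there, with dose or with time, so their lack of a call says little. From 30 h to 48 h at 4 Gy, again no HOX gene passed (1.21% of all genes), 1 had an unadjusted p under 0.05 (15.8% of all genes), and this was HOXC4 (0.41, adjusted p = 0.242). HOXC4 had 0.595 and 0.404 FPKM at 30 h and 0.850 and 1.13 at 48 h after 4 Gy, but 0.898 and 1.52 without irradiation.

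In degron (−) cells, 4 Gy against 0 Gy at 48 h gave 1 call, HOXC10, where 4.73% of all genes were called. Its 2 libraries after 4 Gy (42.0 and 41.9 FPKM) were below both without irradiation (49.2 and 51.9), a difference of −0.26 on the log2(FPKM + 1) scale (SE 0.060, adjusted p = 0.0463). This call was at the border: its adjusted p ran from 0.0363 to 0.399 over 13 alternatives and passed in 3 of them, and it was lost without any 1 of the 4 libraries. By unadjusted p under 0.05 there were 7 genes, all lower after 4 Gy (HOXB2, HOXB4, HOXB8, HOXC4, HOXC8, HOXC10 and HOXC12), against 20.9% of all genes. The difference was below 0 for 23 of the 26 genes, with a median of −0.15 against 0.01 over all genes. HOXC12 had 16.9 and 16.8 FPKM at 0 Gy and 14.7 and 11.1 after 4 Gy (−0.37, adjusted p = 0.0884). HOXC4 had 7.43 and 8.20 at 0 Gy and 5.99 and 4.79 after 4 Gy (−0.47, adjusted p = 0.124). The pairs of libraries did not overlap for either gene, and neither passed the threshold.

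From 30 h to 48 h after 4 Gy in degron (−) cells, no HOX gene was called, where 7.18% of all genes were, and 4 had an unadjusted p under 0.05 (22.3% of all genes). HOXA3 had 2.36 and 3.11 FPKM at 30 h and 3.82 and 3.89 at 48 h, a difference of 0.39 (SE 0.10, adjusted p = 0.0596), and HOXA10 had 0.913 and 0.710 and then 1.497 and 1.16 (0.36, adjusted p = 0.169). HOXA11 (−0.26, adjusted p = 0.204) and HOXB8 (−0.26, adjusted p = 0.0906) had the opposite sign. All 9 HOXB genes had a difference below 0, with a median of −0.12. The 2 comparisons in a population share the libraries at 4 Gy and 48 h.

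**Figure D4:**
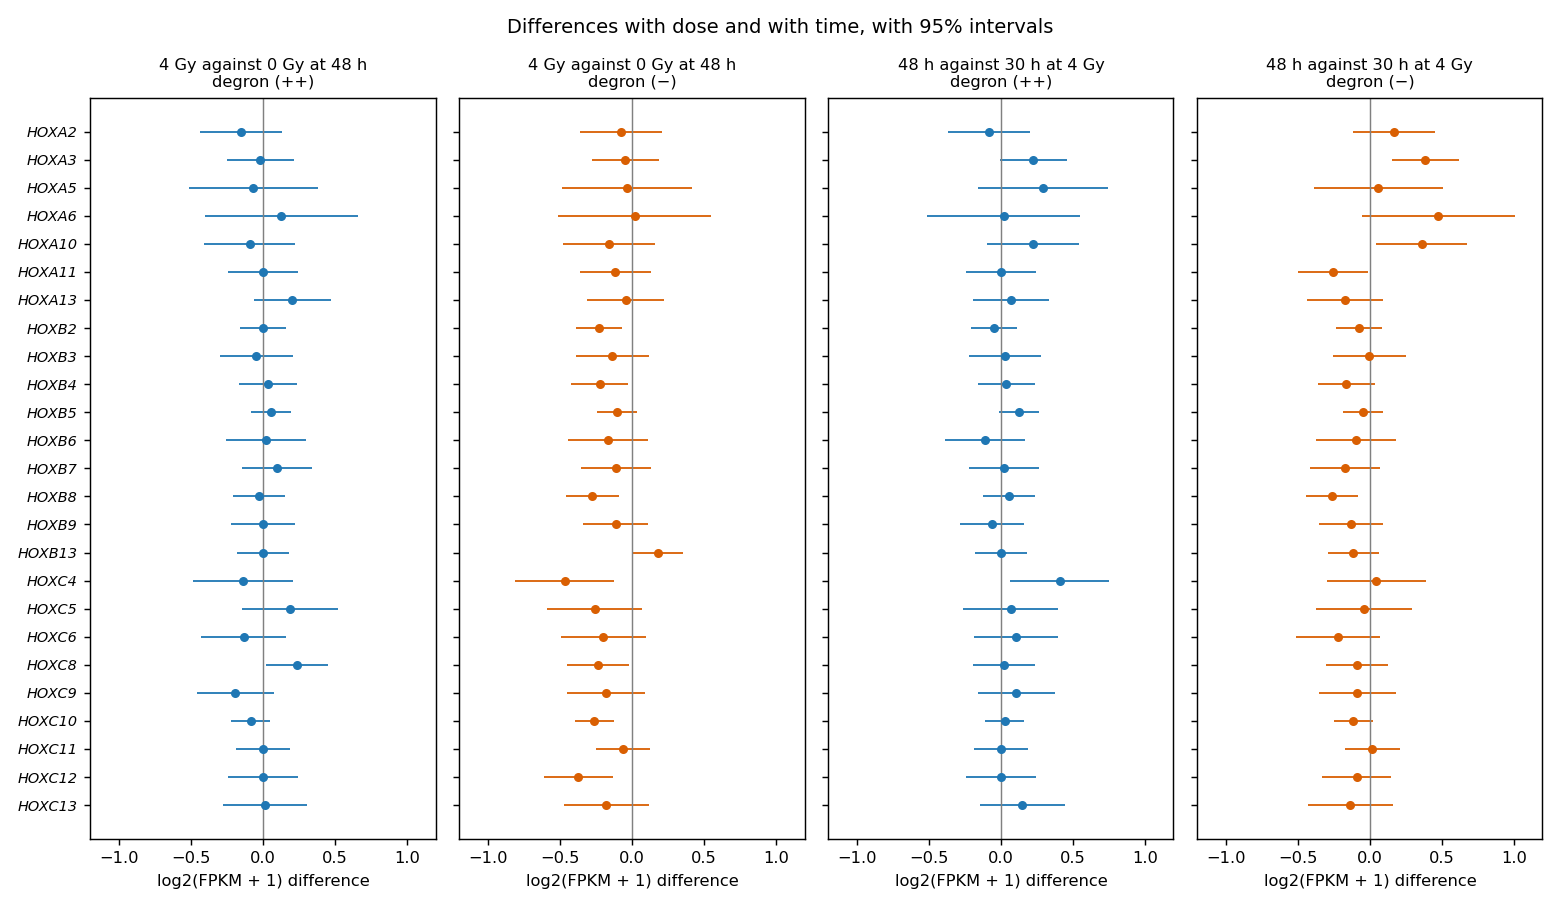
Differences in log2(FPKM + 1) with 95% intervals from limma for HOX genes tested (rows), for 4 Gy minus 0 Gy at 48 h (the 2 panels on the left) and 48 h minus 30 h at 4 Gy (the 2 panels on the right), degron (++) in blue and degron (−) in orange. Most intervals cross 0, and no difference passes 0.5 in size. Genes near 0 in degron (++) had little room to differ there. In degron (−) cells the dose differences of HOXB and HOXC lie mostly left of 0.

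Whether dose acted differently in the populations was tested as an interaction. No HOX gene passed for dose at 48 h, where 0.0772% of all genes did, and 3 had an unadjusted p under 0.05 (13.6% of all genes). Of these HOXC8 came nearest, with a difference of 0.47 between the dose effects (SE 0.13, adjusted p = 0.192), since it had 0.973 and 1.11 FPKM and then 1.36 and 1.43 after 4 Gy in degron (++) cells, and 7.24 and 6.90 and then 5.91 and 5.78 in degron (−) cells. For time at 4 Gy, no HOX gene passed either, where 3.23% of all genes did, and 1 had an unadjusted p under 0.05, HOXB8 (0.32, adjusted p = 0.184), against 17.9% of all genes. The intervals of these differences reached up to 0.75 to either side of the estimate, which bounds what 2 libraries per group could show. For genes near 0 in degron (++), the interaction could reflect little but the difference within degron (−).

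Noncoding RNA genes in the HOX clusters followed the side of the protein-coding genes around them in part. Of 14 listed, 6 were tested and 5 were lower in degron (++) at 0 Gy and 48 h and none higher, where 40.2% of all genes were lower and 37.6% higher. HOTAIR, HOXD-AS1 and HOXD-AS2 reached 1 FPKM in degron (−) cells alone and entered the test through them. A call for these could only be lower, so the count says little. HOXA-AS3, antisense to HOXA6 and HOXA7 and too low to be tested, was higher in all 6 degron (++) libraries, at 0.605 to 0.924 FPKM against 0.090 to 0.223. HOTAIR, a long noncoding RNA that lies between HOXC11 and HOXC12, was listed at 0 in all 6 degron (++) libraries and had 13.4 to 17.3 FPKM (median 15.9) in degron (−). HOTAIRM1, which lies at the 3′ end of the HOXA cluster, ranged from 1.08 to 2.28 in degron (++) and from 12.5 to 16.3 in degron (−), the opposite direction to HOXA2. HOXB-AS3 ranged from 1.25 to 2.29 and from 14.4 to 24.3. HOXD-AS1 had 0 to 0.092 in degron (++) and 1.90 to 2.68 in degron (−), above every HOXD gene. Of the microRNA genes, MIR196B had 653 and 659 FPKM in 2 degron (++) libraries and was listed at 0 in the other 10, and MIR10A had 55.9 in 1 degron (−) library and was listed at 0 in 11.

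Genes on either side of the clusters were described in the same way, and their counts are to be read against 37.6% higher and 40.2% lower of all genes. Of 9 listed flanking genes of HOXA, 8 were tested at 0 Gy and 48 h, with 3 higher and 4 lower in degron (++). Of 12 of HOXB, 9 were tested, with 0 higher and 7 lower, and of 10 of HOXC, 8 were tested, with 2 higher and 3 lower. The median difference of the flanking genes tested was −0.07 for HOXA, −0.87 for HOXB and −0.15 for HOXC. Around HOXD, 7 of 8 were tested, 1 was higher and 3 were lower, and MTX2, named after its values were seen, had 39.3 to 46.0 FPKM in degron (++) and 37.4 to 42.5 in degron (−), although the HOXD genes beside it were near 0. A few flanking genes differed as much as the HOX genes: IGF2BP1, an RNA-binding protein gene, had 0 to 0.012 FPKM in degron (++) and 6.46 to 7.03 in degron (−) (−2.96, adjusted p = 6.52e-10), ITGA5, the alpha chain of a fibronectin receptor, had 0.981 to 1.53 and 25.8 to 37.1 (−3.80, adjusted p = 1.58e-09), and JAZF1 had 0.097 to 0.506 and 4.61 to 5.90 (−2.34, adjusted p = 2.47e-07). IGF2BP1 and JAZF1 passed the filter through degron (−) cells alone, so a call for them could only be lower. SKAP2, on the 3′ side of HOXA, was the higher in degron (++), at 39.8 to 49.9 against 17.1 to 20.1 FPKM (1.34, adjusted p = 1.78e-08).

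**Figure D5:**
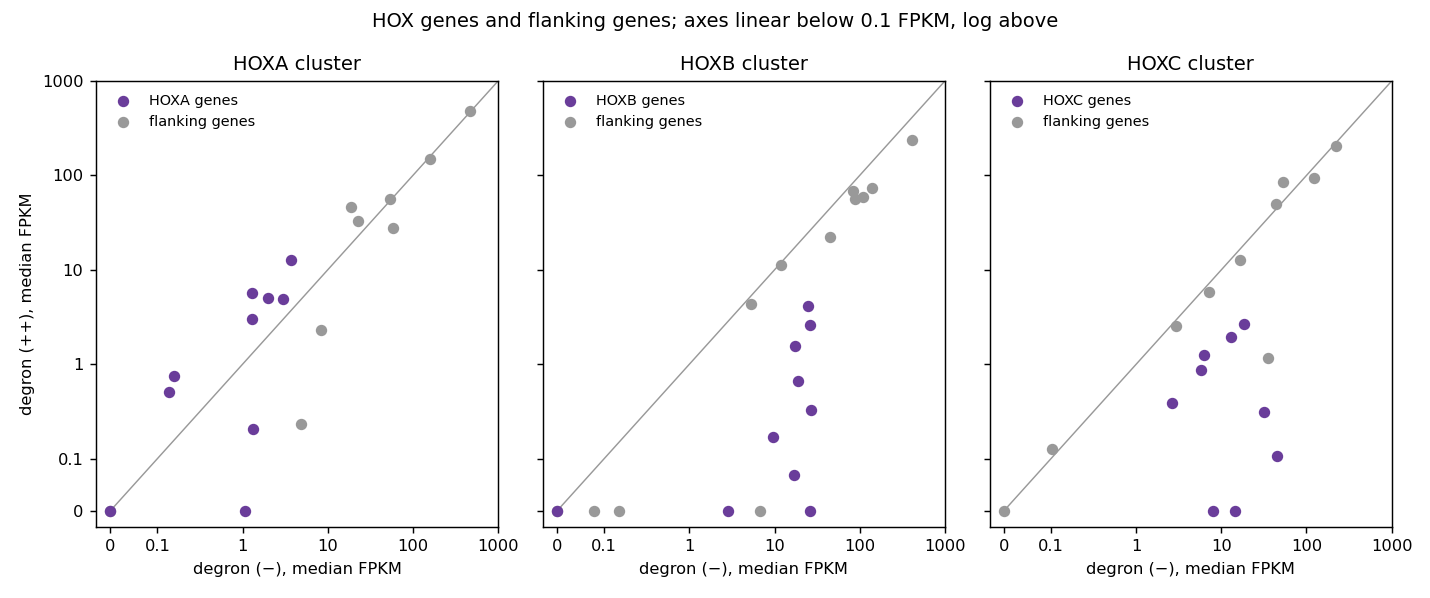
Median FPKM over 6 libraries in degron (−) (x axis) and degron (++) (y axis) of HOX genes (purple) and of listed flanking genes (grey) for HOXA, HOXB and HOXC, on axes that are linear below 0.1 FPKM and logarithmic above, with the line of equal levels. Most grey points lie near the line on these wide axes, while HOXB and HOXC genes lie far below it and HOXA genes lie on both sides. The flanking genes of HOXB were shifted to the same side as HOXB. Of 9 tested at 0 Gy and 48 h, 7 were lower in degron (++) and 0 higher, with a median difference of −0.87.

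Genes that act with HOX proteins or on HOX clusters were described from lists, and here too 37.6% of all genes tested were higher and 40.2% lower in degron (++) at 0 Gy and 48 h. Of 9 HOX cofactor genes, whose proteins bind DNA together with HOX proteins, 7 were tested at 0 Gy and 48 h, and 2 were higher and 3 lower in degron (++). MEIS2 was the higher in degron (++), at 4.95 to 6.99 FPKM against 2.81 to 3.76 (0.77, SE 0.14, adjusted p = 0.000831). PBX3 had 5.61 to 7.22 FPKM in degron (++) and 11.05 to 14.4 in degron (−) (−0.95, adjusted p = 5.96e-06). The sum over the list was alike, 35.8 to 41.6 and 35.2 to 41.5 FPKM.

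Trithorax-type complexes keep HOX genes active and Polycomb complexes keep them silent. Of 15 genes of the MLL group, 6 were higher and 5 lower at 0 Gy and 48 h, near the shares over all genes (37.6% and 40.2%). MLL, the founding methyltransferase of the group, had 8.70 to 10.3 FPKM in degron (++) and 26.1 to 30.3 in degron (−) (−1.49, SE 0.054, adjusted p = 1.84e-08), while WDR5, a shared subunit, was higher in degron (++) (58.4 to 70.0 against 29.6 to 39.1). Of 11 genes of Polycomb repressive complex PRC2, 6 were higher and 2 lower, with EZH1, a catalytic subunit, at 6.04 to 7.45 against 1.82 to 2.83 (1.34, adjusted p = 4.05e-07) and its paralogue EZH2, likewise named after the fact, at 23.9 to 26.5 against 22.8 to 25.4. Of 20 genes of PRC1, 3 were higher and 10 lower, where 37.6% and 40.2% of all genes were, among the lower CBX6 (6.15 to 7.63 against 18.9 to 22.2) and BMI1 (3.33 to 8.18 against 9.18 to 12.8).

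Retinoic acid switches on 3′ HOX genes in the embryo, and CDX factors act on central ones. Of 18 genes of retinoic acid receptors and metabolism, 10 were tested and 8 were higher and 1 lower in degron (++) at 0 Gy and 48 h (37.6% and 40.2% of all genes). The receptor RARG had 55.3 to 71.9 FPKM in degron (++) and 18.5 to 24.9 in degron (−), its partner RXRA 41.9 to 52.0 and 14.97 to 21.8, and ALDH1A3, which makes retinoic acid, 362 to 388 and 85.1 to 112 (2.11, SE 0.041, adjusted p = 4.83e-10). Of 6 CDX and ParaHox genes, 2 were tested and both were lower in degron (++): CDX2, an intestinal factor, had 0 to 0.041 and 1.51 to 2.001 FPKM, and PDX1, a pancreatic one, 0.163 to 0.313 and 2.47 to 2.79. Both passed the filter through degron (−) cells alone, so a call for them could only be lower. Whether any of these genes bears on HOX levels was not tested.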

How the data were processed

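RNA of degron (++) and degron (−) PANC-1 cells was sequenced in 12 libraries (total RNA, a stranded mRNA kit). Per the submitters' processing notes, the authors used TopHat2 2.1.1, Bowtie2 2.2.8, SAMtools 0.1.18 and Cuffdiff 2.2.1 with hg19, and deposited FPKM per gene symbol. The annotation, strand setting and scaling option are not given in the sources used here. FPKM hold no counts, so depth and counting intervals are unknown. Steps between low values put relative depth at 0.877 to 1.19.

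From these, log2(FPKM + 1) was tested with limma 3.58.1 (R 4.3.3, eBayes with trend) on the 12946 genes that reached an FPKM of 1 in 2 or more libraries, in a model of 6 group means over all 12 libraries and 9 contrasts. Adjusted p (Benjamini-Hochberg, all genes) under 0.05 was the threshold, and intervals are 95%. The script was tested on simulated data. The members and lists were chosen with earlier results of these data known. Members with at least 1 FPKM in both libraries of a group were named with values, the others by range, and of each list up to 4 of the largest calls. KRT19, CD3E, COL1A2, DCN, HOXA-AS3, HOXD-AS2, MIR196B, MIR10A, MTX2 and EZH2 were named outside this rule. A few genes are counted but not reported here by name. Alternatives were a pseudocount of 0.1, no filter, a filter at 5, quantile normalization, TPM rescaling, no trend, a replicate block, only the compared libraries, and leaving out libraries; TPM without 1602 small RNA genes was added after the data were seen. Homeoboxes and words came from GENCODE 29 (GRCh38), windows from RefSeq. Python 3.11.15, pandas 2.3.3 and matplotlib 3.10.9 were used.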

Additional observations from a re-analysis of the deposited data

How the results depend on the processing

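The total counts of HOX genes called between the populations stayed within 1.5 times of those given under all alternatives run, but the count of higher genes at 48 h, with either dose, went from 5 to 3 under TPM rescaling and without any 1 of 4 libraries (replicate 1 of either population at 0 Gy, and replicate 2 of degron (++) or replicate 1 of degron (−) at 4 Gy and 48 h). The single call for dose in degron (−) cells became 0 under a pseudocount of 0.1, no filter, TPM rescaling, the replicate block, only the libraries compared, and TPM rescaling without small RNA genes, and was 0 to 1 with single libraries left out, where the 1, without replicate 1 at 4 Gy and 48 h, was not HOXC10; at pseudocount 0.1 the adjusted p of HOXC10 was 0.399. The 0 calls for time in degron (−) cells became 1 under TPM rescaling without small RNA genes and 0 to 1 with single libraries left out (1 without replicate 2 at 4 Gy and 30 h). The counts of expressed genes, 10 and 23, became 1 and 15 at 5 FPKM. No direction reversed for a named gene; gene by gene, a call was kept in 670 checks and lost in 14, and with single libraries left out it was kept in 299 and lost in 13, and the lost calls were those of HOXA5, HOXA6 and HOXC10. These checks drew on all 26 genes tested, and only 12 of them passed the filter within both populations. A gene that entered through degron (−) alone had to differ between the populations, so its kept calls say little. HOXA5 at 4 Gy and 30 h gained a call under quantile normalization. Same-numbered replicates did not deviate together (correlations −0.038 to 0.122 over 15 pairs of groups, 2 pairs of libraries each), so the numbers were not taken as pairs, and the replicate block changed no total count between the populations by over 1.5 times. Each group has 2 libraries, and without counts a low FPKM cannot be told from noise.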
